A study of Homo sapiens with 6 samples.

Results

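The genes of glycolysis and of the hypoxia response were followed as 1 set of 38 genes among the 60483 gene rows of each count file. The set held 4 glucose and lactate transporters, 17 glycolytic enzymes, 3 phosphofructokinase-2 regulators, 3 pyruvate dehydrogenase kinases, 3 subunits of the hypoxia-inducible factors (HIF), 2 HIF prolyl hydroxylases and 6 HIF targets outside glycolysis. Members were chosen by name, and each was found by its Ensembl gene ID. RNA-seq had been done on 253J, a cell line from human bladder cancer kept in RPMI-1640 with fetal bovine serum, from passages 16 to 19. There were 3 control libraries (replicates 1, 2 and 3) and 3 siFTO libraries (replicates 4, 5 and 6), called FTO-knockdown below. The labels name siRNA in both groups, while the study's methods describe shRNA from a lentiviral vector. The comparison asked which of these transcripts changed when FTO, an RNA m6A demethylase, was lowered.

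Glycolysis splits glucose into pyruvate in the cytosol, and lactate dehydrogenase turns pyruvate into lactate, which leaves the cell through monocarboxylate transporters. The HIF alpha subunits are made continuously and are destroyed after prolyl hydroxylation while oxygen is present; when oxygen falls they persist, pair with ARNT and bind the core letters ACGTG or GCGTG near their target genes. Many glycolytic genes are HIF targets, as are genes of acid handling, mitophagy and collagen hydroxylation, and many tumours take up much glucose even when oxygen is present.

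Total counts ran from 10991789 to 19891269 in the control libraries and from 13162731 to 15709975 in the FTO-knockdown libraries. FTO was at 21.4 to 31.8 CPM (counts relative to library size, scaled by TMM) in the controls and at 15.8 to 20.7 CPM in the knockdown cells. FTO-knockdown replicates 4 and 5 stood apart from the other 4 libraries. The summed level of 12 mesenchymal markers, on library totals, was 23.3 to 24.9 CPM in the controls, 2123 and 2566 CPM in replicates 4 and 5, and 38.4 CPM in replicate 6. In replicates 4 and 5, 7 of these 12 markers reached 10 CPM (VIM, FN1, SPARC, TGFBI, CD44, COL1A1 and COL1A2), while COL3A1 and THY1 stayed at or near 0. Of 6 leukocyte markers only CD74 reached 10 CPM in replicates 4 and 5, and PTPRC and CD3E were at or near 0 in all libraries. The 4 endothelial markers summed to 0.364 to 0.865 CPM in the controls, 2.73 and 2.55 CPM in replicates 4 and 5, and 0.76 CPM in replicate 6. All 5 epithelial markers and all 6 intestinal markers were above 10 CPM in every library, whereas of 7 urothelial markers only PPARG was, and the uroplakins, GATA3 and KRT5 were near 0. The part of these differences in the results below was not tested. The counts of higher and lower members over the whole set are therefore also given without replicates 4 and 5. Counts within smaller lists, and counts of genes without overlap of the groups, are given for all 6 libraries only. In bulk RNA, fewer cells of a type and less RNA per cell cannot be told apart. Whether the replicates were separate cultures is not said in the sources, and the p-values cover only the spread between these libraries, which may be technical.

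All 38 members passed the filter on low counts. After FTO knockdown 14 of them rose and 4 fell by edgeR's quasi-likelihood test (adjusted p under 0.05), and 20 did not pass. Over the 14965 genes tested, 19.5% were higher and 17.9% were lower. The median log2 fold change was 0.19 over the members and 0.0057 over all genes tested. The share of calls that were higher over all genes was 52.1%, and 69.6% with library totals in place of TMM. That scaling moved the median of all genes to 0.13 and gave 21 higher and 2 lower members, against 27.3% and 11.9% of all genes. The groups did not overlap in 15 members that were higher and 5 that were lower, against 25.8% and 25.6% of all genes tested. Without knockdown replicates 4 and 5, where the 1 remaining knockdown library is assumed to vary like the controls, 4 members were higher (SLC2A3, HIF1A, EPAS1 and ANKRD37) and 1 was lower (PFKL), against 6.17% and 5.89% of all genes. The count of higher members was 5, 8 or 5 without control replicate 1, 2 or 3, where 8.55%, 9.75% and 11.3% of all genes were higher. It was 9 without knockdown replicate 4 or 5, where 11.1% and 14.2% of all genes were higher. The count of lower members was 2 without control replicate 2 or knockdown replicate 4, where 10.1% and 10.3% of all genes were lower.

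**Figure D1:**
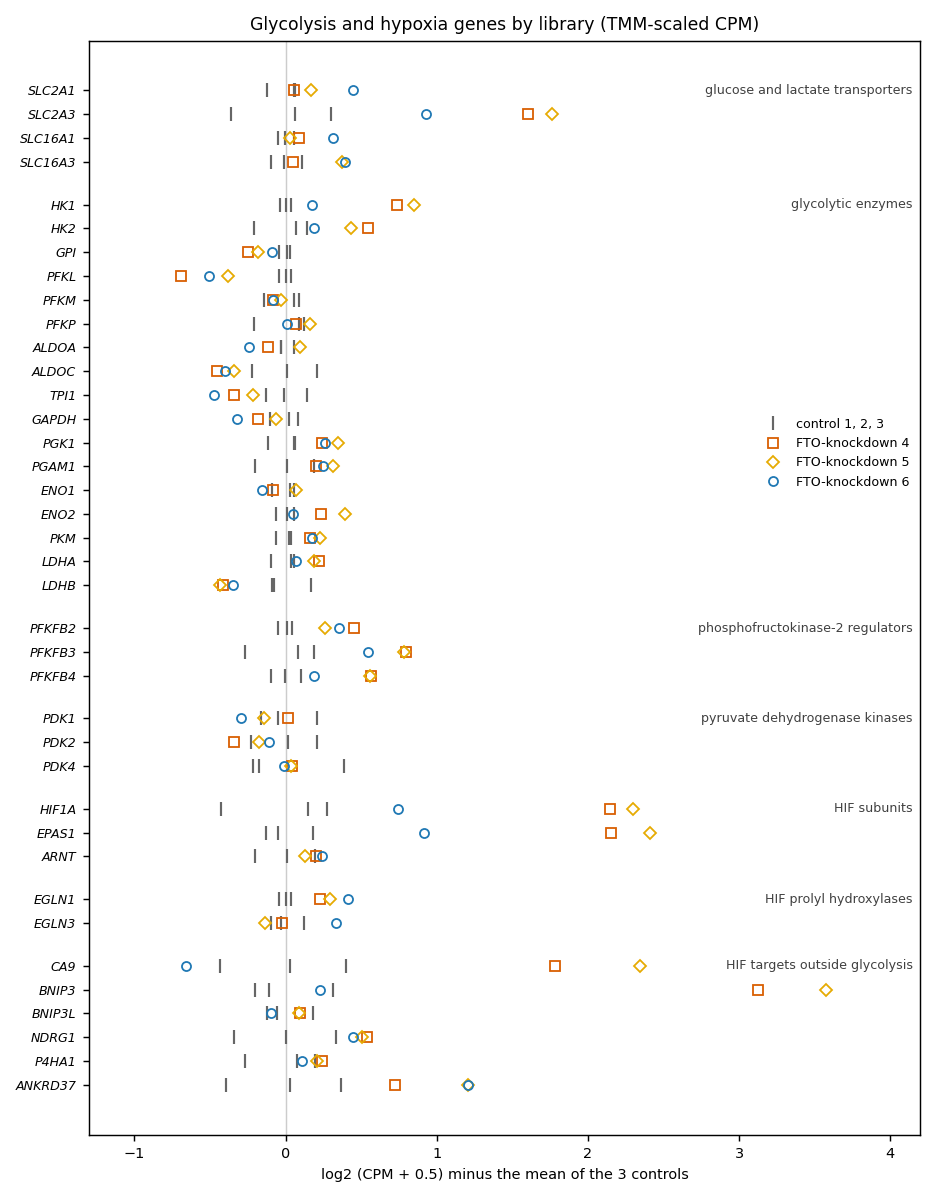
Level of each of the 38 genes in each library as log2 (CPM + 0.5) minus the mean of the 3 controls, grouped by role, with grey bars for the controls and 1 coloured symbol for each FTO-knockdown library. HIF1A, EPAS1, SLC2A3, BNIP3 and CA9 lie farthest right in replicates 4 and 5, PFKL and LDHB lie left of the controls in all 3 knockdown libraries, and most other enzymes stay within 0.5 of 0.

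The HIF core letters were sought in genes that moved and in genes that did not. For this, the 250 bases before 1 RefSeq start of each member (GRCh38.p14) were searched for ACGTG and GCGTG on both strands. Any other starts of a member were not searched. ACGTG also lies within the E-box CACGTG, which counts as 1 match on each strand. A promoter entry was matched for 33 of the 38 members. At least 1 match was present in 19 of these 33 (57.6%), in 10 of 17 enzymes and in 4 of 4 HIF targets outside glycolysis that were matched, against 43.2% of 35116 promoters of the same length. By call, a match was present in 10 of 11 members that were higher, 2 of 4 that were lower and 7 of 18 that did not pass, a tally made after the calls were known and given without a test. The higher SLC2A3, PFKFB2 and NDRG1 had no promoter entry and are outside this tally, as are SLC16A1 and BNIP3L, which did not pass. The lower ALDOC had 5 matches and the lower PFKL had 1, whereas the higher HK1 had none. A match is a description of letters and not of binding. The 6 sequences that follow are those of 4 members that were higher (BNIP3, ANKRD37, PGK1 and CA9) and of the pair of lactate dehydrogenase genes, LDHA and LDHB, whose count ratio differed between the groups. They run 5′ to 3′ along the gene's own strand, in lower case, with the matches on either strand in capitals. BNIP3 had 6 matches (chr10:131981924-131982173, minus strand), LDHA had 5 (chr11:18394313-18394562, plus strand), ANKRD37 had 3 (chr4:185396591-185396840, plus strand), PGK1 had 3 (chrX:78103998-78104247, plus strand) and CA9 had 1 (chr9:35673678-35673927, plus strand). LDHB had no match in this window (chr12:21657843-21658092, minus strand).
BNIP3: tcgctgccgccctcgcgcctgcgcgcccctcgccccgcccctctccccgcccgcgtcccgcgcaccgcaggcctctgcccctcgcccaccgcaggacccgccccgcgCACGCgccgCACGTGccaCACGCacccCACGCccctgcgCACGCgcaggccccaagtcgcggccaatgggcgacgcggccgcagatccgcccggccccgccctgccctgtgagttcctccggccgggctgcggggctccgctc
ANKRD37: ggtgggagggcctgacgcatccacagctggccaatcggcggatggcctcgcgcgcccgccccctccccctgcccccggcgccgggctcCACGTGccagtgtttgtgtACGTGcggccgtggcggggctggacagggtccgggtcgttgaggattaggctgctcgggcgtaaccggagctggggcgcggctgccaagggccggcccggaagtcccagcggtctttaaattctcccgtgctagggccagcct
PGK1: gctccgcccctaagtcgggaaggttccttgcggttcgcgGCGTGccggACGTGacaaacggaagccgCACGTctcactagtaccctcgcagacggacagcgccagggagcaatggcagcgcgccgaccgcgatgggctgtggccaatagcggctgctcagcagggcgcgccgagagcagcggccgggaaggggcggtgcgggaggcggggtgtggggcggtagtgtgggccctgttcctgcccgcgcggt
CA9: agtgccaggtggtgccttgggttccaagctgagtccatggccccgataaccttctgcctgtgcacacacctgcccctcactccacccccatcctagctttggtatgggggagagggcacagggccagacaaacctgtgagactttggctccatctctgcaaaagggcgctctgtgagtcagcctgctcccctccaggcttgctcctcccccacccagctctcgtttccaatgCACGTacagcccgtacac
LDHA: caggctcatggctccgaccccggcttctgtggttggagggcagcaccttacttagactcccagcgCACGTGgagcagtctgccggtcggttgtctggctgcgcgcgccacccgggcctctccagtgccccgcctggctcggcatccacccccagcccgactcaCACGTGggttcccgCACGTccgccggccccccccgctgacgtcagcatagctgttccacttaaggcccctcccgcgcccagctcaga
LDHB: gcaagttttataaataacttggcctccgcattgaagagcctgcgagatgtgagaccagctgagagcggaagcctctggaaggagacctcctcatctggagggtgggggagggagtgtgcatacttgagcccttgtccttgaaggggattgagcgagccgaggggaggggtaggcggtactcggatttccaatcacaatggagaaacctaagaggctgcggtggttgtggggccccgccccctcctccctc

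Among the transporters, the glucose transporter SLC2A3 (GLUT3) rose and the other 3 did not pass the test. SLC2A3, a high-affinity carrier, was at 17.6, 14.8 and 10.9 CPM in the controls and at 44.1, 49.4 and 27.5 CPM in knockdown replicates 4, 5 and 6. Every knockdown library lay above every control library, and replicate 6 was the lowest of the 3. The log2 fold change of SLC2A3 was 1.5 (standard error, SE, 0.22; edgeR adjusted p = 0.00131), and it was 0.95 (adjusted p = 0.0146) without replicates 4 and 5. SLC2A1 (GLUT1), the carrier found in most cells, was at 623, 548 and 620 CPM in the controls and at 621, 670 and 813 CPM in the knockdown cells, so only replicates 5 and 6 lay above the controls. Its log2 fold change was 0.23 (SE 0.11, edgeR adjusted p = 0.121). The lactate carriers SLC16A1 (MCT1) and SLC16A3 (MCT4) had log2 fold changes of 0.15 and 0.28 (edgeR adjusted p of 0.228 and 0.0621). These 3 passed the threshold with library totals in place of TMM, at 0.35 for SLC2A1, 0.27 for SLC16A1 and 0.40 for SLC16A3, against the shift of 0.13 that this scaling gives all genes. Replicate 6, which had the lowest SLC2A3 of the knockdown libraries, had the highest level of SLC2A1, SLC16A1 and SLC16A3 of all 6 libraries. It lay above every control in all 4 transporters, as it did in 37.6% of all genes tested.

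Of the 17 enzymes, 3 rose (HK1, HK2 and PGK1), 4 fell (PFKL, ALDOC, TPI1 and LDHB) and 10 did not pass. That is 17.65% higher and 23.53% lower, near the 19.5% and 17.9% of all genes tested. The median log2 fold change of the enzymes was -0.057. By level per transcript length, GAPDH was the most abundant enzyme transcript in the controls, at 1447 RPKM (CPM per kilobase of exon), followed by ENO1 at 608, LDHB at 551, TPI1 at 519, PKM at 518 and ALDOA at 434 RPKM. The control ranges of ENO1 (572 to 633 RPKM), LDHB (516 to 617) and TPI1 (473 to 571) overlapped each with the next, so the order of these neighbours is not settled by their spread. The 17 enzymes together took 1.94%, 1.88% and 2.02% of all counts in the controls and 2.04%, 2.15% and 1.96% in knockdown replicates 4, 5 and 6. These shares overlapped between the groups.

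The hexokinases start glycolysis by phosphorylating glucose. HK1 was at 183, 179 and 174 CPM in the controls and at 299, 323 and 201 CPM in the knockdown cells. All 3 knockdown libraries lay above the controls, with replicate 6 the nearest to them, and the log2 fold change was 0.62 (SE 0.15, edgeR adjusted p = 0.00987). HK2, the isoform linked to fast-growing tumours, was at 98.6, 77.3 and 93.7 CPM in the controls and at 131, 121 and 102 CPM in the knockdown cells, a log2 fold change of 0.39 (SE 0.12, edgeR adjusted p = 0.0253). Neither hexokinase passed without replicates 4 and 5 (0.17 and 0.18 on the log2 scale) or without any 1 of the controls. HK2 also missed the threshold when knockdown 4 or knockdown 5 alone was left out. GPI, which isomerises glucose 6-phosphate, was at 527, 509 and 535 CPM against 441, 461 and 492 CPM; the groups did not overlap, but the log2 fold change of -0.17 did not pass (edgeR adjusted p = 0.117).

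Phosphofructokinase commits sugar to glycolysis, and of its 3 subunit genes only PFKL passed the test. PFKL, the liver-type subunit, was at 203, 210 and 214 CPM in the controls and at 129, 160 and 147 CPM in knockdown replicates 4, 5 and 6. Every knockdown library was below every control, and PFKL fell by 0.52 on the log2 scale (SE 0.09, edgeR adjusted p = 0.00276). It fell by 0.51 without replicates 4 and 5 (adjusted p = 0.0336). The muscle-type PFKM (142, 124 and 146 CPM against 129, 134 and 129 CPM) and the platelet-type PFKP (284, 226 and 277 CPM against 273, 292 and 262 CPM) overlapped between the groups, with log2 fold changes of -0.069 and 0.073 (edgeR adjusted p of 0.552 and 0.597).

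Among the aldolases, ALDOC was at 95.4, 83.2 and 70.6 CPM in the controls and at 60.0, 65.1 and 62.3 CPM in the knockdown cells. The controls were spread, the knockdown libraries were close to each other, and the groups did not overlap; ALDOC fell by 0.41 on the log2 scale (SE 0.11, edgeR adjusted p = 0.0169). The main aldolase ALDOA was at 1664, 1770 and 1669 CPM against 1569, 1821 and 1438 CPM, with replicate 5 above and replicates 4 and 6 below the controls. TPI1, which interconverts the 3-carbon products of aldolase, was at 1277, 1543 and 1385 CPM in the controls and at 1105, 1204 and 1006 CPM in the knockdown cells. All knockdown libraries of TPI1 were below the controls, and it fell by 0.34 on the log2 scale (SE 0.10, edgeR adjusted p = 0.0215). With library totals in place of TMM, ALDOC and TPI1 were at -0.29 and -0.22 (both at an adjusted p of 0.0664), and without replicates 4 and 5 at -0.41 (adjusted p = 0.125) and -0.48 (adjusted p = 0.0798). With length and GC corrected for they were at -0.29 (adjusted p = 0.0533) and -0.20 (adjusted p = 0.0915), and both missed the threshold in several fits without 1 library (ALDOC without control 1, control 2 or knockdown 4, TPI1 without control 2, control 3, knockdown 4 or knockdown 6).

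GAPDH, which oxidises glyceraldehyde 3-phosphate and which the study used as an internal control for Q-PCR, was at 4369, 4015 and 4556 CPM in the controls and at 3802, 4127 and 3452 CPM in the knockdown cells. Replicate 5 lay within the control range and replicates 4 and 6 below it, and the log2 fold change of -0.19 did not pass (SE 0.09, edgeR adjusted p = 0.128). PGK1, the next enzyme and the first to make ATP, rose. It was at 463, 408 and 460 CPM in the controls and at 524, 564 and 530 CPM in the knockdown cells, with no overlap, and the log2 fold change was 0.28 (SE 0.09, edgeR adjusted p = 0.0260). PGK1 missed the threshold without replicates 4 and 5 (0.26) or when exon length and GC content were corrected for (0.15, adjusted p = 0.153). It also missed it with no filter on low counts (edgeR adjusted p = 0.0536) and without control 1, control 3, knockdown 4 or knockdown 5. The mutase PGAM1 (312, 269 and 351 CPM against 355, 384 and 367 CPM) did not overlap between the groups but missed the threshold, at 0.25 (edgeR adjusted p = 0.0850).

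ENO1, the main enolase, was at 3017, 3267 and 3337 CPM in the controls and at 3020, 3358 and 2873 CPM in the knockdown cells, which overlapped, and its log2 fold change was -0.057 (edgeR adjusted p = 0.629). ENO2, the neuronal enolase, was at 165, 160 and 152 CPM against 187, 209 and 164 CPM, where replicate 6 lay within the control range (0.23, edgeR adjusted p = 0.0861). The pyruvate kinase gene PKM was at 4245, 4558 and 4516 CPM in the controls and at 4961, 5192 and 5020 CPM in the knockdown cells. Although these groups did not overlap, the log2 fold change of 0.19 was just outside the threshold (SE 0.07, edgeR adjusted p = 0.0656). Gene counts do not separate the M1 and M2 splice forms of PKM.

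Of the lactate dehydrogenase subunits LDHB fell and LDHA did not pass. LDHB, which favours the use of lactate, was at 1539, 1839 and 1551 CPM in the controls and at 1231, 1212 and 1286 CPM in knockdown replicates 4, 5 and 6. The knockdown libraries were close together and all below the controls, and LDHB fell by 0.40 on the log2 scale (SE 0.09, edgeR adjusted p = 0.00747). LDHA, which favours the making of lactate, was at 1212, 1106 and 1229 CPM against 1377, 1344 and 1240 CPM. LDHA was higher in every knockdown library than in every control, by a small margin in replicate 6, and its log2 fold change of 0.16 did not pass (SE 0.08, edgeR adjusted p = 0.156). Of the alternatives, only leaving out replicates 4 and 5 ended the LDHB call, at -0.35 (adjusted p = 0.187).

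A ratio of 2 genes' counts within a library does not depend on library scaling, and 11 such ratios were compared. The ratio of LDHA to LDHB counts was 0.788, 0.601 and 0.793 in the controls and 1.12, 1.11 and 0.964 in the knockdown cells. The knockdown libraries were all higher, with LDHA counts above LDHB counts in replicates 4 and 5. The ratio of PFKP to PFKL was 1.40, 1.08 and 1.29 in the controls and 2.11, 1.82 and 1.79 in the knockdown cells, and that of PFKM to PFKL was 0.657 ± 0.057 in the controls and 0.906 ± 0.083 in the knockdown cells (SD, n = 3 each). The ratio of PGK1 to GAPDH was 0.106, 0.102 and 0.101 against 0.138, 0.137 and 0.154, and replicate 6, in which the mesenchymal markers were low, had the highest value. The ratio of the transporters SLC2A1 to SLC2A3 was 35.5, 37.0 and 56.9 in the controls and 14.1, 13.6 and 29.6 in the knockdown cells, all lower. In 8 of the 11 ratios the groups did not overlap, and in HK1 to HK2, ALDOA to ALDOC and HIF1A to EPAS1 they did. Of single genes tested, 25.8% were higher and 25.6% lower without overlap, and no such share was computed for ratios. The ratios are not independent, since PFKL and PGK1 each enter more than 1 of them. The exact permutation test, two-sided, gave p = 0.1 for each of the 8, the smallest that 3 against 3 libraries allow, and 0.138 after adjustment over the 11, so none could reach 0.05.

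**Figure D2:**
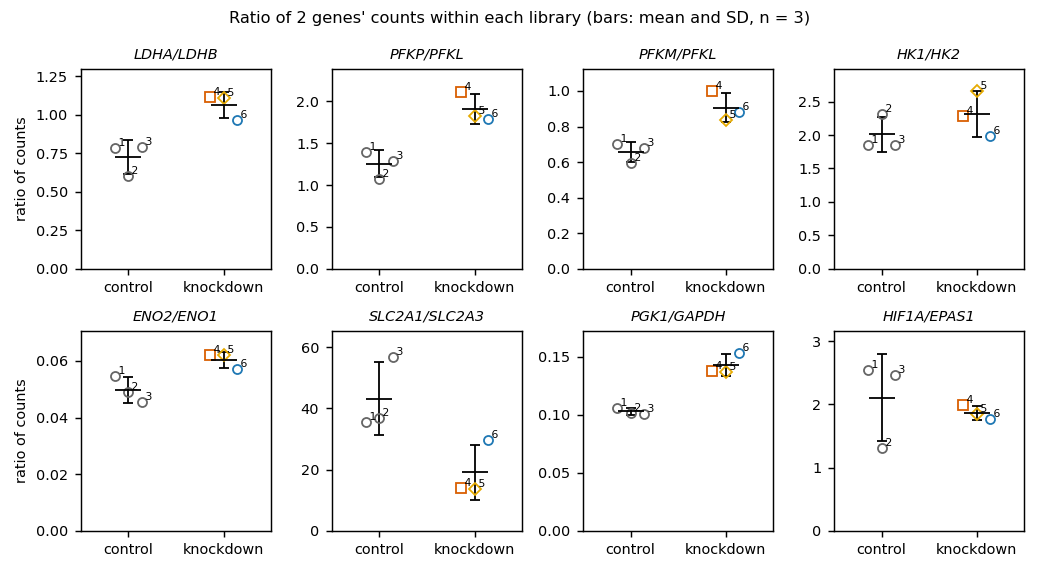
Ratio of the counts of 2 genes within each library, in 8 panels with their own linear axes from 0, for 3 control and 3 FTO-knockdown libraries labelled by replicate number; bars are the mean and SD (n = 3). LDHA to LDHB runs from 0.601 to 0.793 in the controls and from 0.964 to 1.12 in the knockdown cells, and PGK1 to GAPDH from 0.101 to 0.106 and from 0.137 to 0.154.

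The 3 phosphofructokinase-2 regulators, bifunctional enzymes that set the level of fructose 2,6-bisphosphate and so the pace of phosphofructokinase, were all higher. PFKFB3, which strongly favours synthesis of this activator, was at 37.4, 29.2 and 40.4 CPM in the controls and at 61.8, 61.1 and 51.8 CPM in the knockdown cells. The groups were well separated, and the log2 fold change was 0.71 (SE 0.13, edgeR adjusted p = 0.00294). PFKFB4 was at 24.8, 23.1 and 21.6 CPM against 34.5, 34.3 and 26.4 CPM, with replicate 6 close to the controls (0.46, SE 0.12, edgeR adjusted p = 0.0162). PFKFB2 was at 19.4, 18.2 and 19.0 CPM against 26.0, 22.8 and 24.3 CPM, again without overlap (0.37, SE 0.10, edgeR adjusted p = 0.0184). None of the 3 passed without replicates 4 and 5, where PFKFB3 was at 0.54 (adjusted p = 0.0555), PFKFB2 at 0.37 (adjusted p = 0.154) and PFKFB4 at 0.19 (adjusted p = 0.466). PFKFB4 also missed the threshold without any 1 of the controls or knockdown replicate 4 or 5, and PFKFB2 without control 1, control 3 or knockdown 4 and with length and GC corrected for (0.13, adjusted p = 0.295). PFKFB2 shares exon bases with YOD1 on the opposite strand, and with no strand setting given reads from the shared bases cannot be told apart.

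The pyruvate dehydrogenase kinases, which switch off the entry of pyruvate into the citric acid cycle, did not pass in any of the 3 cases. PDK1, a HIF target, was at 25.8, 19.8 and 21.4 CPM in the controls and at 22.4, 20.1 and 18.0 CPM in the knockdown cells, which overlapped (log2 fold change -0.14, SE 0.13, edgeR adjusted p = 0.411). With length and GC corrected for, PDK1 was at -0.47 and passed (adjusted p = 0.00796). PDK2 and PDK4 had log2 fold changes of -0.22 and 0.022 (edgeR adjusted p of 0.186 and 0.950), and PDK4 lay at only 2.53 to 4.09 CPM in the 6 libraries. Other genes of the same enzyme complex did pass, and they were chosen for display after their values were seen. PDP1, a phosphatase that reverses the kinases, was at 26.1, 25.4 and 27.1 CPM in the controls and at 52.6, 48.3 and 50.8 CPM in the knockdown cells. The 3 knockdown values were alike, replicate 6 included, and the log2 fold change was 0.95 (SE 0.09, edgeR adjusted p = 0.000194) with all libraries and 0.96 (adjusted p = 0.0018) without replicates 4 and 5. The second phosphatase, PDP2, rose by 0.34 on the log2 scale (edgeR adjusted p = 0.0164). The subunit gene PDHX rose by 0.28 (edgeR adjusted p = 0.0345), and DLAT and DLD, at 0.27 and 0.050, did not pass. The subunit PDHA1, which the kinases and phosphatases act on, was at 212, 249 and 227 CPM against 162, 161 and 166 CPM. PDHA1 and its partner PDHB fell by 0.49 and 0.41 (edgeR adjusted p of 0.00244 and 0.00721), and were at -0.46 and -0.47 (adjusted p of 0.0574 and 0.0625) without replicates 4 and 5.

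**Figure D3:**
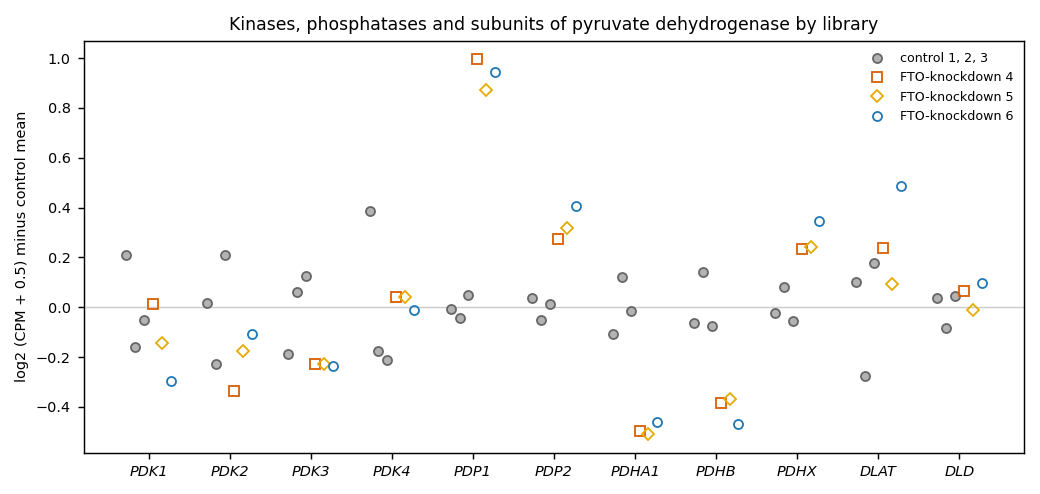
Level of the 4 kinases, 2 phosphatases and 5 subunit genes of pyruvate dehydrogenase in each library, as log2 (CPM + 0.5) minus the control mean. The 3 PDP1 symbols of the knockdown cells lie between 0.8 and 1, those of PDHA1 and PDHB lie below all controls, and PDK1, PDK2 and PDK4 overlap with the controls.

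Of the HIF subunits, both alpha subunits rose and ARNT did not pass. HIF1A was at 28.6, 17.4 and 26.2 CPM in the controls and at 106, 118 and 39.7 CPM in knockdown replicates 4, 5 and 6. All knockdown libraries lay above the controls, and replicates 4 and 5 lay far above replicate 6. The log2 fold change of HIF1A was 1.88 (SE 0.34, edgeR adjusted p = 0.00289), 0.73 (adjusted p = 0.0377) without replicates 4 and 5, and 1.69 (adjusted p = 0.0501) without control replicate 2, the library with the lowest level. EPAS1, which encodes HIF-2 alpha, was at 11.3, 13.3 and 10.6 CPM against 53.5, 64.0 and 22.5 CPM, and as for HIF1A the knockdown libraries ran from replicate 5 to 4 to 6. Its log2 fold change was 2.0 (SE 0.31, edgeR adjusted p = 0.00159) and 0.94 (adjusted p = 0.00845) without replicates 4 and 5. The ratio of HIF1A to EPAS1 counts, 2.54, 1.31 and 2.47 in the controls and 1.98, 1.84 and 1.77 in the knockdown cells, overlapped between the groups. ARNT, the shared partner, was at 49.6, 37.7 and 43.6 CPM against 49.95, 47.4 and 51.3 CPM (0.19, SE 0.11, edgeR adjusted p = 0.202). Transcript levels do not measure HIF protein, which is set largely by its breakdown.

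The HIF prolyl hydroxylases mark the alpha subunits for breakdown, and both are themselves known HIF targets. EGLN1 (PHD2) was at 63.4, 62.0 and 59.8 CPM in the controls and at 72.3, 75.8 and 82.4 CPM in the knockdown cells. The groups did not overlap, and replicate 6 had the highest level, unlike for HIF1A. The log2 fold change was 0.32 (SE 0.09, edgeR adjusted p = 0.0168). EGLN1 missed the threshold without replicates 4 and 5 (0.42) or with length and GC corrected for (0.12, adjusted p = 0.288). It also missed it without control 1, control 3 or knockdown 6. EGLN3 (PHD3) was at 19.4, 17.4 and 16.6 CPM against 17.5, 16.1 and 22.5 CPM, which overlapped (0.076, SE 0.14, edgeR adjusted p = 0.696).

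Of the 6 HIF targets outside glycolysis, 4 rose (CA9, BNIP3, NDRG1 and ANKRD37), none fell and 2 did not pass (BNIP3L and P4HA1). Over all genes tested, 19.5% were higher and 17.9% were lower. The groups were free of overlap in NDRG1 and ANKRD37. CA9 lost its call in DESeq2 (adjusted p = 0.119) and in voom (adjusted p = 0.275), and BNIP3 in voom (adjusted p = 0.0985). Both lost it without any 1 of the controls, and CA9 also when knockdown 4 or knockdown 5 alone was left out. BNIP3, a mitophagy receptor, was at 1.68, 1.54 and 2.43 CPM in the controls and at 20.02, 27.5 and 2.26 CPM in knockdown replicates 4, 5 and 6. Replicate 6 lay inside the control range, so the log2 fold change of 3.11 (SE 0.69, edgeR adjusted p = 0.00668) came from replicates 4 and 5 and was 0.23 (adjusted p = 0.732) without them. Rows of its pseudogenes held 67 counts against 845 of BNIP3 itself (7.93%), the largest such share of any member. CA9, a carbonic anhydrase of the cell surface that handles acid, was at 1.02, 2.21 and 1.60 CPM against 6.58, 9.95 and 0.802 CPM, from 11, 33 and 31 counts in the controls and 93, 160 and 11 counts in the knockdown cells. Here replicate 6 was the lowest of all 6 libraries. The log2 fold change of CA9 was 1.82 (SE 0.64, edgeR adjusted p = 0.0469) and turned to -1.03 (adjusted p = 0.232) without replicates 4 and 5.

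ANKRD37, an ankyrin repeat protein, rose in all 3 knockdown libraries relative to every control. It was at 1.49, 2.88 and 2.17 CPM in the controls and at 3.82, 5.53 and 5.54 CPM in the knockdown cells, from 16 to 89 counts per library. Replicate 6 was as high as replicate 5. The log2 fold change was 1.16 (SE 0.27, edgeR adjusted p = 0.00769) and 1.32 (adjusted p = 0.0230) without replicates 4 and 5, and it did not pass without control replicate 1 or 3. NDRG1, a stress-induced protein, was at 248, 197 and 156 CPM in the controls, which were spread, and at 286, 280 and 269 CPM in the knockdown cells, which were close together (0.47, SE 0.14, edgeR adjusted p = 0.0254). Without replicates 4 and 5 NDRG1 was at 0.43 (adjusted p = 0.154), with length and GC corrected for at 0.34 (adjusted p = 0.0821), and it also missed the threshold when control 2, control 3, knockdown 4 or knockdown 5 was left out. The mitophagy receptor BNIP3L, a relative of BNIP3, was at 70.5, 59.7 and 57.0 CPM against 66.6, 66.2 and 58.0 CPM, and the collagen prolyl hydroxylase P4HA1 at 64.3, 59.1 and 46.5 CPM against 66.6, 64.9 and 60.5 CPM. Both overlapped between the groups, with log2 fold changes of 0.030 and 0.18 (edgeR adjusted p of 0.840 and 0.254). CA9 shares exon bases with ARHGEF39 (3309 counts against 339 of CA9) and ANKRD37 with UFSP2 (2644 against 320), each on the opposite strand. Reads from the shared bases cannot be told apart without a strand setting. These counts are of whole genes, and the length of the shared stretches was not computed. In all, 24 members share exon bases with another gene, among them SLC16A3 with CSNK1D (12345 counts against 12334 of SLC16A3) and BNIP3L with PNMA2 (3246 against 5553), both on the opposite strand.

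**Figure D4:**
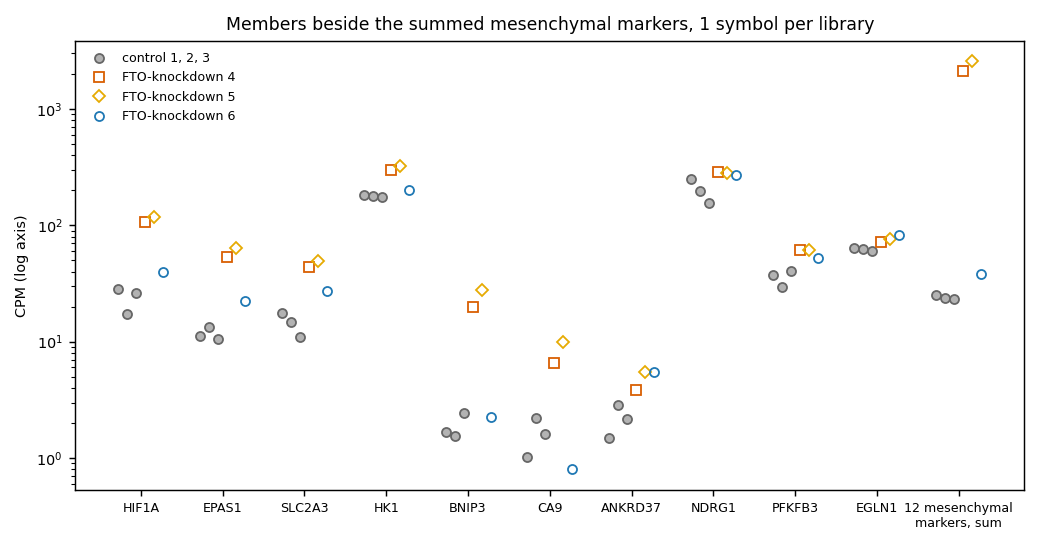
CPM on a log axis of 10 members and, at the right, of the summed 12 mesenchymal markers (on library totals), with 1 symbol per library. BNIP3 and CA9 in replicate 6 lie within or below the controls, the marker sum of replicate 6 (38.4 CPM) lies near theirs, and HIF1A, EPAS1, SLC2A3 and ANKRD37 in replicate 6 lie above every control.

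The median log2 fold change of the enzymes was -0.057 and that of the HIF targets outside glycolysis was 0.82, a difference of -0.88. The members were chosen with earlier results known, so the difference is given without a test. Against the control mean, the enzyme median was -0.084, 0.099 and -0.084 in knockdown replicates 4, 5 and 6, and the HIF target median was 0.63, 0.86 and 0.17. The difference was thus -0.71, -0.76 and -0.25, against -0.034 to 0.084 in the single controls. Each control was part of the mean it was set against, which narrows the control range. The difference had the same direction in all 3 knockdown libraries but was smaller in replicate 6. With library totals in place of TMM the enzyme median turned to 0.064 and the HIF target median was 0.94, against the shift of 0.13 in all genes. Without replicates 4 and 5 the HIF target median was 0.17 and the difference was -0.25. Enzymes had longer exons and more GC than HIF targets (medians of 5276 against 3700 bases, and 55.7% against 51.9%), and with both corrected for the difference was -0.79.

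**Figure D5:**
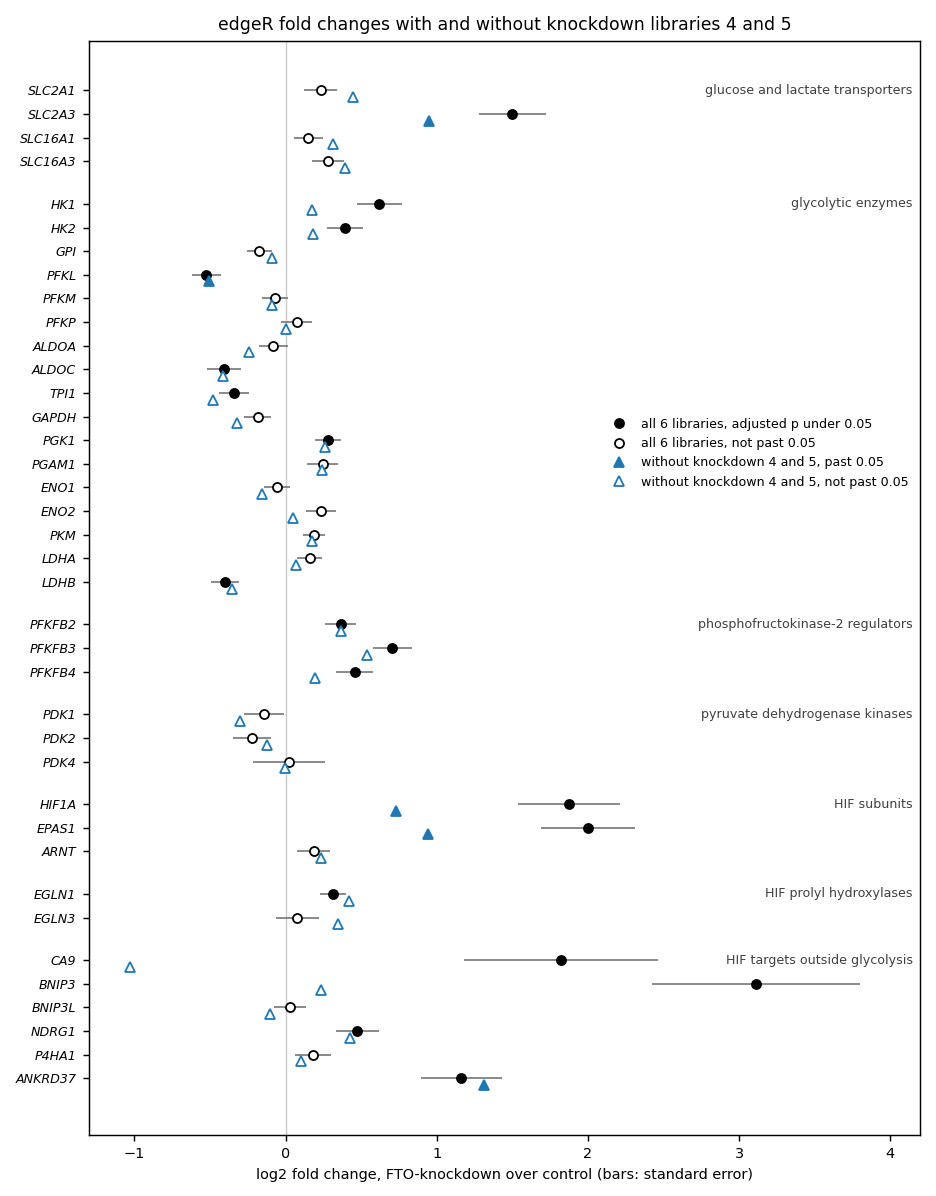
edgeR log2 fold change of each member (FTO-knockdown over control), as circles with standard error bars for all 6 libraries and as triangles for the fit without knockdown replicates 4 and 5; filled symbols are past an adjusted p of 0.05. Filled triangles mark SLC2A3, PFKL, HIF1A, EPAS1 and ANKRD37, and the triangles of BNIP3 and CA9 lie at 0.23 and -1.03, far from their circles at 3.11 and 1.82.

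In other genes of glucose metabolism, 26 of 37 listed passed the filter, of which 6 rose and 7 fell. That is 23.1% and 26.9%, against 19.5% and 17.9% of all genes tested, and the median was 0.020. HKDC1, a hexokinase relative, was at 1.86, 2.81 and 1.81 CPM in the controls and at 14.5, 18.0 and 3.21 CPM in the knockdown cells, a log2 fold change of 2.46 (edgeR adjusted p = 0.00531) and of 0.57 (adjusted p = 0.32) without replicates 4 and 5. TIGAR, a p53-induced phosphatase that lowers fructose 2,6-bisphosphate, was at 14.8, 13.7 and 12.7 CPM against 25.7, 22.6 and 25.8 CPM. Replicate 6 was as high as the others, and TIGAR rose by 0.85 (edgeR adjusted p = 0.000915) and by 0.92 (adjusted p = 0.00676) without replicates 4 and 5. PCK2, the mitochondrial enzyme that makes phosphoenolpyruvate, was at 536, 653 and 443 CPM against 116, 129 and 98.8 CPM and fell by 2.24 (edgeR adjusted p = 3.4e-05), and PFKFB1, another regulator, at low level, fell by 1.44 (edgeR adjusted p = 0.00726). The fall of PFKFB1 went against the rise of the 3 regulators above, and it did not pass without any 1 of the controls.

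In other genes of the HIF pathway, 10 of 11 passed the filter, of which 4 rose and 2 fell. That is 40% and 20%, against 19.5% and 17.9% of all genes tested, and the median was 0.14. ARNT2, a second partner of the alpha subunits, was at 0.186, 0.201 and 0.103 CPM in the controls and at 4.25, 6.72 and 0.948 CPM in the knockdown cells. With only 2 or 3 counts in each control, ARNT2 passed the filter on low counts through the knockdown libraries alone. It is counted among the 4 that rose and in the median, but its fold change and p are not given. The genes of the ubiquitin ligase that destroys the alpha subunits did not move together. Its scaffold CUL2 rose by 0.53 (adjusted p = 0.00385), while its subunits ELOB and RBX1 fell by 0.59 and 0.47 (edgeR adjusted p of 0.0139 and 0.00891), and VHL, which recognises the alpha subunits and was named after its values were seen, was at 0.19 and did not pass (adjusted p = 0.167). CUL2, ELOB and RBX1 did not pass without replicates 4 and 5.

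In other genes of the hypoxia response, 24 of 30 passed the filter, of which 10 rose and 4 fell. The shares were 41.7% and 16.7%, against 19.5% and 17.9% of all genes tested. The median log2 fold change was 0.22. Against the control mean the median was 0.18, 0.25 and 0.041 in knockdown replicates 4, 5 and 6, so it was smallest in replicate 6. The transcription factor BHLHE40 was at 12.6, 10.1 and 10.1 CPM in the controls and at 45.4, 46.6 and 19.5 CPM in the knockdown cells. Its knockdown libraries had the order of those of HIF1A and EPAS1, with replicate 6 above the controls and below the other knockdown libraries. BHLHE40 had a log2 fold change of 1.78 (edgeR adjusted p = 0.00164), and without replicates 4 and 5 this was 0.85 (adjusted p = 0.0144). DDIT4, a brake on mTOR signalling, fell by 1.68 and the small GTPase RAB20 by 0.72 (edgeR adjusted p of 0.000213 and 0.00192), and both were lower in all 3 knockdown libraries. VEGFA and PLOD2 were chosen after their values were seen. VEGFA, the angiogenic factor, was at 100.4, 85.6 and 94.2 CPM in the controls and at 136, 147 and 46.1 CPM in the knockdown cells, so replicates 4 and 5 lay above and replicate 6 below the controls. The collagen lysyl hydroxylase PLOD2 was at 0 to 0.103 CPM in the controls and in replicate 6 at 0.0729 CPM, against 39.3 and 50.8 CPM in replicates 4 and 5.

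Of the 18 members past the threshold, 3 kept their call and direction in all 15 alternative settings, namely SLC2A3, EPAS1 and PFKL. HIF1A kept its call in all but 1, and LDHB and PFKFB3 in all but the fit without replicates 4 and 5. The chi-square between pairs of libraries, divided by its degrees of freedom, was 4.16 to 21.6 within the controls and 5.65 to 28.8 within the knockdown cells, so no library was a copy of another. In GENCODE 29 on GRCh38, which may not be the build used for counting, SLC2A3 lies at chr12:7919230-7936275 (minus strand), PFKL at chr21:44300051-44327376 (plus strand), HIF1A at chr14:61695513-61748259 (plus strand) and EPAS1 at chr2:46293667-46386703 (plus strand).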

How the data were processed

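The authors deposited 1 table of read counts per gene for each of 6 libraries, not normalized. TopHat2 2.0.11 and HTSeq are named in the submitters' notes, with hg19 and GRCh37 as builds. The sources used here give no HTSeq version, annotation release or strand setting. The tables hold no rows for unassigned reads, so the share of reads outside genes is unknown, and the 37 mitochondrial genes were at 0.

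Counts were analysed in R 4.3.3 with edgeR 4.0.16 (filterByExpr, minimum count 10 and minimum total 15, TMM scaling, quasi-likelihood test with group as the only term, two-sided, Benjamini-Hochberg adjustment over 14965 genes, threshold 0.05). The standard error is the log2 fold change divided by the square root of F. Members were found by Ensembl ID, and lengths for RPKM and GC content came from GENCODE 29 on GRCh38, matched by ID without version (99.5% of genes tested). Promoter sequences are those of RefSeq on GRCh38.p14. CPM use TMM-scaled library sizes, except marker sums. The pseudocount on the log2 scale was 0.5.

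The members and all gene lists were chosen with earlier results of these data known. Every member could be named, as could markers, FTO and the other pathway genes with the largest change among those past the threshold without overlap of the groups. The limit in each direction was 4 for glucose metabolism and lower for the HIF pathway and the hypoxia response. Only some of these are printed. Of the other hypoxia response genes, 1 that met this rule is not reported here. The pipeline was tested on simulated data. Alternatives were RLE factors, upper-quartile factors, library totals, no filter, at least 10 counts in every library, DESeq2 1.42.0, voom of limma 3.58.1, a correction for exon length and GC content, and leaving out each library or both replicates 4 and 5. Counting intervals and floors were not needed, as every member had counts in all libraries. Data from m6A-seq were not used here.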

Additional observations from a re-analysis of the deposited data

How the results depend on the processing

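No paired analysis was possible because the replicate numbers 1 to 3 and 4 to 6 are not shared between the groups. The counts of 14 higher and 4 lower members, the medians and their difference kept their direction and stayed within 1.5 times under RLE and upper-quartile factors, both other filters, DESeq2, voom and the length and GC correction, except that this correction moved the enzyme median from -0.057 to 0.014. With library totals alone 2 members were lower, the enzyme median turned to 0.064, and 1787 genes in all were lower, while PFKM (0.049), ALDOA (0.041) and ENO1 (0.064) turned. Leaving out 1 library gave 5 to 14 higher and 2 to 4 lower members, an enzyme median of -0.085 to -0.018, a HIF target median of 0.74 to 0.94, a difference of -0.99 to -0.77, and 1383 to 3826 higher and 1589 to 2928 lower genes in all. Without replicates 4 and 5, with 1 knockdown library left, 4 members were higher and 1 was lower, the HIF target median was 0.17, the difference was -0.25, and 970 genes were higher and 926 lower. In that fit CA9 turned to -1.03, BNIP3L to -0.0999 and PDK4 to -0.00252. The other changes of direction were in members that did not pass. PDK4 turned to -0.00312 with upper-quartile factors, -0.097 with the length and GC correction, and ran from -0.12 to 0.24 when 1 library was left out (below 0 without control replicate 2 or 3). With the length and GC correction ALDOA was at 0.044, EGLN3 at -0.072 and BNIP3L at -0.062. When 1 library was left out, BNIP3L ran from -0.032 to 0.11 (below 0 without control replicate 2 or 3 or knockdown replicate 4), PFKP from -0.023 to 0.12 (below 0 without control replicate 2) and EGLN3 from -0.088 to 0.18 (below 0 without knockdown replicate 6). The causes were not tested, other than that fits with fewer libraries have less information. Of 570 member values compared over the 15 alternatives, 467 kept direction and side of the threshold, 69 lost the call, 16 gained it and 18 changed direction. CA9, BNIP3 and ANKRD37 rest on as few as 11, 18 and 16 counts in a library.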
